A study of Mus musculus with 15 samples.

Results

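The NMDA receptor subunit genes Grin1, Grin2a and Grin2b were followed in mouse cortex 1 month after repeated impacts to the head (high-frequency head impact, HF-HI). Members were chosen by gene name alone. They are all listed transcripts that the GENCODE M21 annotation assigns to these genes, which gave 13 of the 10370 transcripts in the deposited data. Grin1 had 8 listed transcripts of 14 annotated, Grin2a 2 of 6 and Grin2b 3 of 7. The 14 other annotated transcripts of these genes were not analysed here.

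RNA came from dissected cortex of male mice labelled C57BL/6 (C57Bl/6J in the study's methods). The labelled age was 12 weeks, and the labels do not say whether it was taken at impact or at collection. The Sham group (n = 7 libraries) was handled and anesthetized without impacts, and the HF-HI group (n = 8 libraries) received repeated head impacts under the same isoflurane anesthesia on consecutive days. The labels name no genetic change and no other treatment for either group. Cortex was sequenced as a whole, so fewer cells of a type and less RNA per cell cannot be told apart. Nothing in the labels states how many animals stand behind a library, and p-values measure the spread between libraries.

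NMDA receptors are glutamate-gated channels that admit calcium only when glutamate, a co-agonist and depolarization coincide, which makes them central to synaptic plasticity. Every receptor contains GluN1, the glycine-binding subunit encoded by Grin1, together with GluN2 subunits that bind glutamate. In forebrain these are mainly GluN2A, encoded by Grin2a, which gives fast-closing channels and rises with maturation, and GluN2B, encoded by Grin2b, which gives slower currents and a docking site for the kinase encoded by Camk2a. Grin1 RNA is spliced at an N-terminal cassette (N1), which alters proton and polyamine sensitivity, and at C-terminal cassettes (C1, and C2 or its replacement C2′), which alter trafficking and anchoring.

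All 3 genes lie on the minus strand of GRCm38 (mm10): Grin1 (ENSMUSG00000026959) on chromosome 2, Grin2a (ENSMUSG00000059003) on chromosome 16 and Grin2b (ENSMUSG00000030209) on chromosome 6. The proteins of the listed coding Grin1 transcripts differ by the presence of the N1 and C1 exons and by where the last exon begins. The transcripts also begin at 3 annotated positions: 25319187 for Grin1-205, 25319120 for Grin1-201, Grin1-202 and Grin1-206, and 25319095 for Grin1-204, Grin1-207 and Grin1-208. N1 is a coding exon of 63 bases at chr2:25311343-25311405, and C1 is a coding exon of 111 bases at chr2:25294438-25294548. The longer last exon of 1304 bases opens with the C2 coding stretch, at chr2:25292371-25292484. When the last exon starts 356 bases further on it has 948 bases and opens with C2′, at chr2:25292063-25292128. These stretches, taken from GENCODE M21 transcripts and written 5′ to 3′ without the stop codon, are shown because they set which form of GluN1 a coding transcript encodes. Capitals mark the cassette, and lower case marks 15 bases of neighboring coding exon.
N1: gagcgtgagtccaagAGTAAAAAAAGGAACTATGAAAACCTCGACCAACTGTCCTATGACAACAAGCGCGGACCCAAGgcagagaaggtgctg
C1: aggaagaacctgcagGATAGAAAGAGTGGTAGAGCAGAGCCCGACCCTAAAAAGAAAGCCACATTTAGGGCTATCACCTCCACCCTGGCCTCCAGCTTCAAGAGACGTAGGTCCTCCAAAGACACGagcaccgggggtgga
C2: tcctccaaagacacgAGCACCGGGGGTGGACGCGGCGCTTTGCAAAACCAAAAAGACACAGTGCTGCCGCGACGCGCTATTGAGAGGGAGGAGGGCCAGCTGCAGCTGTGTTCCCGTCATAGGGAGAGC
C2′: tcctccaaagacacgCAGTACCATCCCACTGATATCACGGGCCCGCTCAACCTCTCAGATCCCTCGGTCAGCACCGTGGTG

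N1 adds 21 residues and C1 adds 37, while C2 ends the protein with 38 residues and C2′ with 22. Of the 8 combinations annotated as coding, 7 were listed. Grin1-201 has C1 and C2 without N1 (938 residues), Grin1-202 has C2 alone (901 residues) and Grin1-204 has N1, C1 and C2 (959 residues). Grin1-205 has C2′ alone (885 residues), Grin1-206 has C1 and C2′ (922 residues), Grin1-207 has N1 and C2′ (906 residues) and Grin1-208 has N1, C1 and C2′ (943 residues). The combination of N1 with C2 but no C1, Grin1-203, was not among the listed transcripts. The eighth listed transcript, Grin1-214, has no coding sequence. It has 3 exons, and its last exon of 2804 bases (chr2:25310801-25313604) runs through the N1 exon and the introns around it.

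These transcripts share most of their bases, and the authors' counts are estimates that divide shared reads among them. Windows of 100 bases were compared among the listed transcripts of each gene. Of the 7 coding Grin1 transcripts, 5 held no window of their own, and Grin1-202 held 98 and Grin1-205 held 61. Grin1-214 differed from the rest, since 2626 of its windows (78.7%) lay in no other listed Grin1 transcript. Grin2a-201 (4395 bases) lies whole inside Grin2a-202 (5023 bases), and both encode the same 1464 residues. Grin2b-201, of 24060 bases, had 16613 windows of its own, and Grin2b-202 (7484 bases) had 37 and the same 1482-residue reading frame. Grin2b-204 is a fragment of 703 bases from the start of the gene with a coding stretch of 106 bases and 37 windows of its own.

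No difference between the groups was detected for any of the 3 genes when all listed transcripts of a gene were summed. Normalized counts are reads divided by the size factor of a library, which corrects for depth. Grin1, the obligatory subunit, had 2425 to 2690 normalized counts in Sham libraries (median 2571) and 2403 to 2800 in HF-HI libraries (median 2593). The means were 2565 ± 95.1 (SD, n = 7) and 2596 ± 125 (SD, n = 8), and the groups overlapped over nearly their whole range. The log2 difference, HF-HI minus Sham, was 0.014 (95% interval −0.054 to 0.082, limma voom, unadjusted p = 0.665, Benjamini-Hochberg adjusted p = 0.932).

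Grin2a had 2043 to 2392 normalized counts in Sham (median 2251) and 2089 to 2374 in HF-HI (median 2274). The log2 difference of 0.033 was within the spread between libraries (95% interval −0.046 to 0.11, limma voom, unadjusted p = 0.388, adjusted p = 0.828). Grin2b had 11193 to 12743 normalized counts in Sham (median 12194) and 11416 to 12742 in HF-HI (median 12059). Its log2 difference was 0.022 (95% interval −0.047 to 0.091, limma voom, unadjusted p = 0.514, adjusted p = 0.884). Across the genes, the intervals reach from 0.964-fold for Grin1 to 1.08-fold for Grin2a, so larger changes in the summed RNA fall outside them. Of all 7870 genes tested in this way, 9.35% had an unadjusted p under 0.05, and none of the 3 subunit genes was among them. No gene of the 7870 had an adjusted p under 0.1 (limma voom, smallest 0.111).

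**Figure D1:**
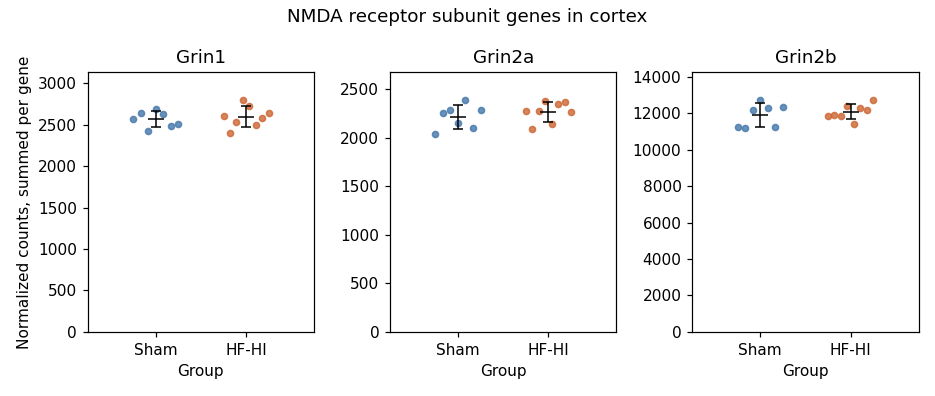
Normalized counts (vertical axes, starting at 0) summed over all listed transcripts of Grin1, Grin2a and Grin2b, with a point per library for Sham (n = 7) and HF-HI (n = 8) and bars for the mean and SD. The groups overlap in each panel, and no Grin1 sum lies outside 2403 to 2800.

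Depth moved with the groups. Reads in the listed transcripts ranged from 5798810 to 10582858 in Sham libraries and from 3496103 to 8666307 in HF-HI libraries, so that HF-HI libraries had on average the smaller log2 size factors (difference −0.55, exact two-sided permutation p = 0.0280). HF-HI 2 stood apart on the first principal component of all transcripts, at 12.6 where the other 14 libraries lay between −3.35 and 0.72. Some cell type markers were called too, where 9.35% of all genes were, and the marker sums given here were not tested. All 9 excitatory neuron markers were listed, their summed level was 42439.5 to 43804 normalized counts in Sham and 42705 to 47791 in HF-HI, and 3 of them rose at an unadjusted p under 0.05. Of 10 striatal markers 8 were listed (Drd2 and Gpr6 were not), with sums of 7110 to 10829.8 in Sham and 5063 to 10294 in HF-HI, and 3 fell. The 6 astrocyte markers summed to 9753 to 10191 normalized counts in Sham and 8606 to 10070.2 in HF-HI, where 6 of 8 libraries were below the Sham median and 1 marker fell. The 4 listed microglia markers (of 6, Aif1 and Tmem119 are not listed) summed to 1092 to 1237 in Sham and 985 to 1225 in HF-HI, where again 6 of 8 libraries were below the Sham median and 1 marker fell. Choroid plexus markers (Ttr and Enpp2 listed, 2 of 6) summed to 1972 to 11212 in Sham and 2018 to 13832 in HF-HI, highest in HF-HI 2. No interneuron, oligodendrocyte, endothelium, choroid plexus, hippocampus or blood marker was called. The sums of all 10 marker lists overlapped between the groups. The part of depth and of these markers in the results on the subunits was not tested, except that depth was entered as a covariate and each library was left out in turn.

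Compared per length, the order of the subunits depended on a single short transcript. Counts were divided by transcript length in kilobases and summed per gene. With all listed transcripts, Grin2b was highest (742 to 1133 normalized counts per kilobase over the 15 libraries, median 951), Grin1 followed (606 to 715, median 653) and Grin2a was lowest (430.1 to 506, median 475). These ranges did not overlap, and the order held in all 15 libraries. Grin2b-204, the 703-base fragment, supplied 42.2% of the per-length level of Grin2b although it held 2.36% of its reads.

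When only transcripts with a complete coding sequence were counted, Grin1 had 543 to 619 normalized counts per kilobase (median 594), Grin2b 506 to 572 (median 550) and Grin2a 430.1 to 506 (median 475). Grin2b then exceeded Grin1 in 2 of 15 libraries and exceeded Grin2a in 15 of 15. Among the listed transcripts, Grin1 and Grin2b were therefore neighbors whose ranges overlapped, while Grin2a remained the lowest per length in each library. Grin2a-206 (14634 bases, coding length 4392) was not listed. Any reads of it are missing from the Grin2a levels here and from the ratios below.

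No difference in the balance of the subunits was detected between the groups. The ratio of Grin2a to Grin2b per length was 0.515 in Sham and 0.489 in HF-HI (geometric means). On the log2 scale it was −0.96 ± 0.16 (SD, n = 7) and −1.03 ± 0.12 (SD, n = 8), a difference of −0.076 (95% interval −0.23 to 0.085, exact two-sided permutation p = 0.316). With complete coding transcripts the ratios were 0.864 and 0.874, with a log2 difference of 0.017 (exact two-sided permutation p = 0.643). The level of this ratio thus depended on the short fragment, and the sign of its small difference turned with it.

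The ratio of Grin1 to Grin2a plus Grin2b per length was 0.471 in Sham and 0.453 in HF-HI, a log2 difference of −0.059 (interval −0.18 to 0.057, exact two-sided permutation p = 0.311), and −0.020 without Sham 1. AMPA receptors carry the fast glutamate current beside NMDA receptors, and the study measured the balance of both currents in hippocampal neurons. At the RNA level in cortex, the ratio per length of the AMPA receptor genes Gria1 to Gria4 to the 3 NMDA receptor genes was 1.26 in Sham and 1.22 in HF-HI. Without division by length it was 0.865 and 0.849, so which receptor's RNA exceeds the other depends on that step. Its log2 difference was −0.047 (interval −0.15 to 0.052, exact two-sided permutation p = 0.361), and −0.013 without Sham 1. These 3 ratios, the non-coding share of Grin1 and the 3 splice shares below form a family of 7 exact tests, in which the Benjamini-Hochberg adjusted p was 0.548 for each of the ratios.

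The 8 Grin1 transcripts shared the reads of the gene without any of them dominating. Grin1-201 took the largest mean share of Grin1 reads (20.2%), followed by Grin1-206 (17.9%), Grin1-205 (15.3%), Grin1-207 (10.2%), Grin1-204 (9.98%), Grin1-208 (8.90%), Grin1-202 (8.89%) and Grin1-214 (8.74%). In contrast, Grin2b-201 held 92.5% of Grin2b reads, with Grin2b-202 at 5.11%. Grin2a reads were split between Grin2a-202 (59.1%) and Grin2a-201 (40.9%).

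A single member transcript of 13 was called at an unadjusted p under 0.05, where 8.83% of all 10370 transcripts were. None of the 10370 transcripts, members included, had an adjusted p under 0.1 (limma, smallest 0.206). The called member was the non-coding Grin1-214 (ENSMUST00000155627). It had 165 to 239 normalized counts in Sham (median 213) and 202 to 329.5 in HF-HI (median 244). In HF-HI 6 of 8 libraries lay above the Sham median, the highest being HF-HI 4 and HF-HI 6, and the groups overlapped between 202 and 239. The deposited values are variance-stabilized (VSD), a log2 scale that compresses low counts, on which a doubling from 200 normalized counts is a step of 0.27. Grin1-214 was higher in HF-HI by 0.075 VSD (SE 0.029, limma, unadjusted p = 0.0207, adjusted p = 0.483), and the log2 ratio of the mean normalized counts was 0.31. The call was kept without each of the 15 libraries in turn (unadjusted p from 0.0110 to 0.0475), HF-HI 2 included, and was lost with the log2 size factor as a covariate (difference 0.057 VSD, unadjusted p = 0.132).

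The same transcript alone makes up the non-coding share of Grin1. Its last exon runs through introns of the coding transcripts, and the libraries were made from total RNA. Whether its reads come from a separate transcript or from unspliced Grin1 RNA was not tested. This share was 6.63% to 9.09% of Grin1 reads in Sham (median 8.10%) and 7.80% to 11.8% in HF-HI (median 9.46%). The 2 highest values, 11.8% and 11.7%, were in HF-HI 4 and HF-HI 6. The means were 7.79% ± 1.04 (SD, n = 7) and 9.56% ± 1.52 (SD, n = 8), a difference of 1.77 percentage points (interval 0.308 to 3.24). The exact two-sided permutation p was 0.0216, and 0.151 after adjustment over the 7 tests. With the log2 size factor as a covariate the difference was 1.23 percentage points (two-sided permutation p = 0.0953). That p is approximate, since the groups were relabelled while the size factor, which differs between them, stayed fixed. Over the 15 libraries the share and the log2 size factor had a Pearson r of −0.54 (permutation p = 0.0362, adjusted over 4 relations 0.0806) and a Spearman rho of −0.50 (permutation p = 0.0602, adjusted 0.120). Without the 2 libraries farthest from the median size factor r was −0.54, and within groups r was −0.37 in Sham and −0.30 in HF-HI. The groups differ in both depth and treatment.

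**Figure D2:**
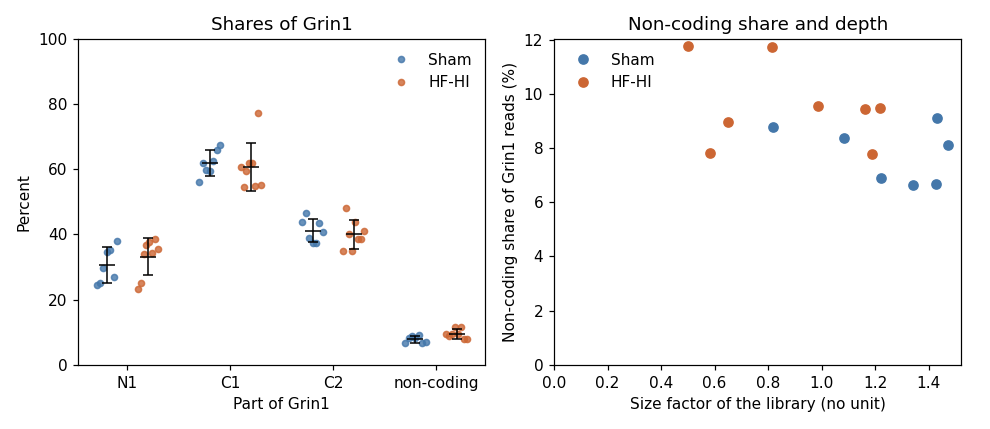
Left, percent of coding Grin1 transcripts (per length) that carry N1, C1 or C2, and percent of Grin1 reads in the non-coding transcript, with a point per library and bars for the mean and SD (Sham n = 7, HF-HI n = 8). Right, the non-coding share of each library (percent) against its size factor, where the 2 libraries above 11% are HF-HI 4 and HF-HI 6.

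None of the 12 other member transcripts was called. On the VSD scale the coding Grin1 transcripts differed by −0.070 (Grin1-205, unadjusted p = 0.315) to 0.064 (Grin1-207, unadjusted p = 0.311), each with limma and each with an adjusted p of at least 0.720. Grin1-201, the form with C1 and C2, had 390.1 to 697 normalized counts in Sham (median 536) and 390.1 to 617 in HF-HI (median 480.0). Its lowest values in the groups were the same to within a count, and its VSD difference of −0.057 was not called (limma, unadjusted p = 0.225, adjusted p = 0.750). Grin2b-204 came nearest to a call after Grin1-214, with 161 to 367 normalized counts in Sham and 245 to 407 in HF-HI (difference 0.063 VSD, limma, unadjusted p = 0.147, adjusted p = 0.689). Without Sham 4, which holds the highest Sham value, its unadjusted p was 0.0400.

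**Figure D3:**
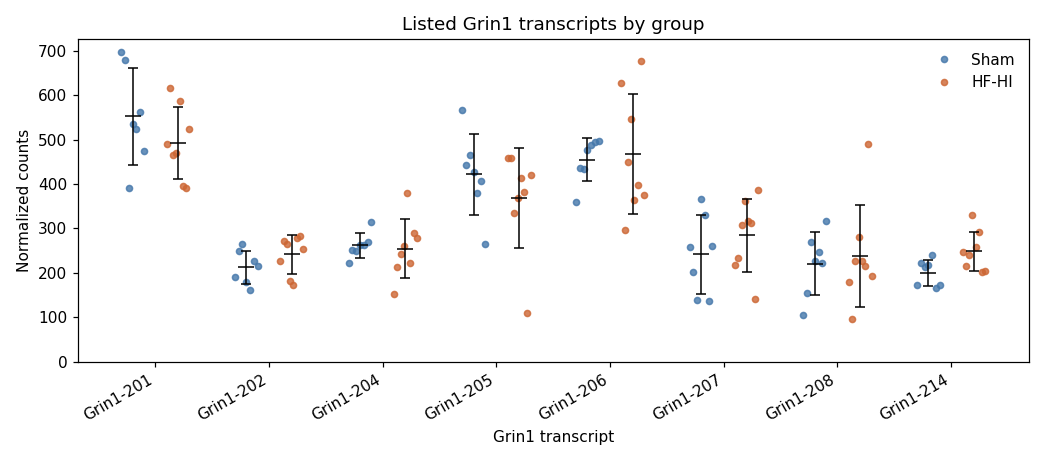
Normalized counts (vertical axis, from 0) of the 8 listed Grin1 transcripts, with a point per library and bars for the mean and SD of Sham (n = 7) and HF-HI (n = 8). Grin1-214 is the called transcript, and HF-HI 7 is the lowest point of Grin1-205 (109) and the highest of Grin1-208 (491).

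Usage of the transcripts, meaning each transcript against the others of its gene, gave no call among the 13 members. In all genes with several listed transcripts, 13.0% of 4138 transcripts were called in this test. The smallest unadjusted p among the members was 0.161 (Grin2b-204, usage difference 0.25 on the log2 scale, limma diffSplice, adjusted p = 0.568), followed by 0.162 for Grin1-214 (usage difference 0.32, adjusted p = 0.568). With the log2 size factor as a covariate, Grin1-207 was the exception, with a usage difference that passed an unadjusted p of 0.05.

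Splice cassettes were summed over the coding Grin1 transcripts per length. The N1 share was 24.5% to 38.1% in Sham and 23.4% to 38.7% in HF-HI, with means of 30.6% ± 5.42 (SD, n = 7) and 33.2% ± 5.74 (SD, n = 8). The difference of 2.52 percentage points was within the spread (interval −3.82 to 8.86, exact two-sided permutation p = 0.391). The C1 share was 56.2% to 67.6% in Sham and 54.6% to 77.4% in HF-HI, a difference of −1.13 percentage points (interval −7.14 to 5.63, exact two-sided permutation p = 0.751). The C1 difference was −3.51 without HF-HI 7, which has the highest C1 share (exact permutation p = 0.1002). With the log2 size factor as a covariate it was −3.49 (permutation p = 0.303, approximate as for the non-coding share). The C2 share was 37.3% to 46.6% in Sham and 34.8% to 48.1% in HF-HI, a difference of −1.15 percentage points (interval −5.62 to 3.42, exact two-sided permutation p = 0.584). Since Grin1-203 was not listed, any reads with N1 and C2 but without C1 are missing from these shares. The cassette shares were chosen after the annotation had been seen.

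The summed genes varied less between libraries than most of their transcripts. The within-group coefficient of variation was 4.35% for summed Grin1, 4.99% for summed Grin2a and 4.47% for summed Grin2b. The Grin1 transcripts ranged from 16.9% (Grin1-214) to 42.2% (Grin1-208), where counting error alone gives 6.83% and 6.77%. The Grin2a transcripts were at 21.7% and 30.2%. Grin2b-201, which holds most of its gene's reads, was at 4.87%, close to the Grin2b sum, and the other Grin2b transcripts were at 16.5% and 21.3%. Among 1638 genes with at least 2 listed transcripts, the median transcript varied 3.01 times as much as the sum (quartiles 2.10 and 4.45). For Grin1 this was 4.94 times, for Grin2a 5.20 times and for Grin2b 3.69 times.

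**Figure D4:**
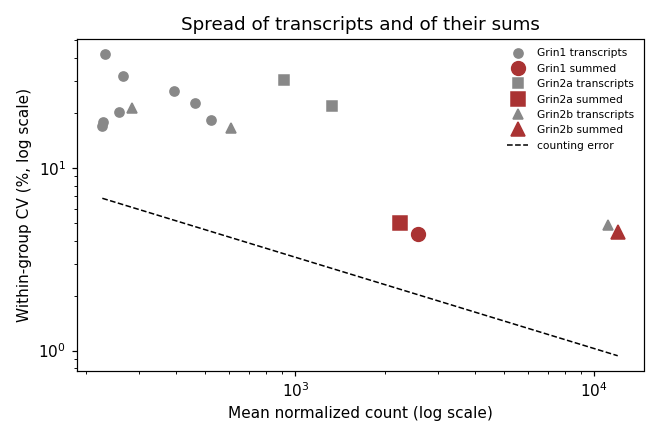
Within-group coefficient of variation (percent, log axis) against the mean normalized count (log axis) of the 13 member transcripts (gray) and of the 3 gene sums (red), with the counting error as a dashed line. The sums lie at 4.35% to 4.99%, and the Grin1 and Grin2a transcripts at 16.9% to 42.2%.

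In single libraries, a transcript of a gene was low where another of the same gene was high. In HF-HI 1, Grin2a-201 had 85.3 normalized counts where the 7 other HF-HI libraries had 943 to 1160 and Sham had 698 to 1187. In the same library Grin2a-202 had 2187, where the other HF-HI libraries had 1122 to 1334 and Sham had 1036 to 1583. Their sum in HF-HI 1 was ordinary, within the 2089 to 2374 of the group. Without HF-HI 1 the VSD difference of Grin2a-201 turned from −0.052 to 0.077 and that of Grin2a-202 from 0.031 to −0.027, and neither was called in either case.

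HF-HI 7 showed a like pattern in Grin1. It had 109 normalized counts of Grin1-205, which lacks N1 and C1, and 491 of Grin1-208, which has both. The other HF-HI libraries had 335 to 459 of Grin1-205 and 96.9 to 282 of Grin1-208. HF-HI 7 also had the highest C1 share, 77.4%, and the highest N1 share, 38.7%. Over the 15 libraries Grin1-205 and Grin1-208 had a Pearson r of −0.90 (Spearman rho −0.71, and r = −0.66 without the 2 libraries farthest from the median of Grin1-205), and Grin2a-201 and Grin2a-202 had −0.92 (rho −0.71, and r = −0.53 without 2 libraries). Grin1-206 and Grin1-208, which both carry C1 and C2′, had the highest r of the 28 Grin1 pairs, 0.71. These correlations describe values that share reads and libraries, and no test was made of them.

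**Figure D5:**
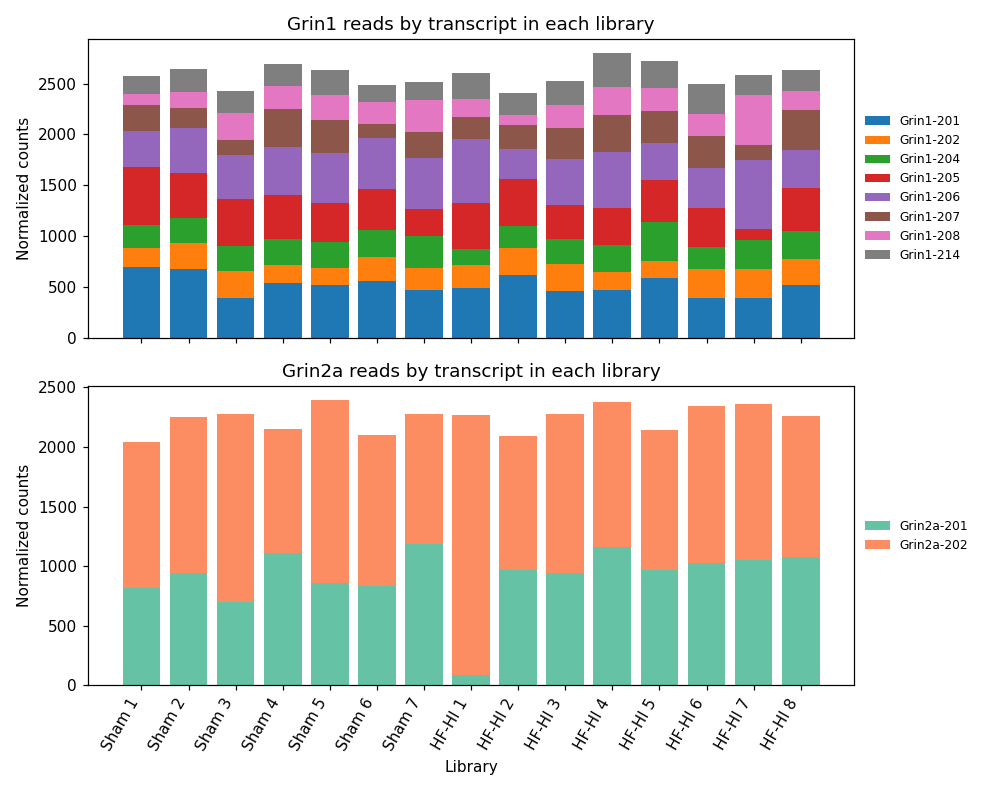
Normalized counts (vertical axis) of each library stacked by transcript for Grin1 (upper panel) and Grin2a (lower panel), Sham libraries to the left and HF-HI to the right. Bar heights are alike, while HF-HI 1 has almost no Grin2a-201 (85.3) and HF-HI 7 has little Grin1-205 (109) and the most Grin1-208 (491).

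Across libraries, summed Grin2a and Grin2b had a Pearson r of 0.54 (permutation p = 0.0403) and a Spearman rho of 0.53 (permutation p = 0.0476), which after adjustment over 4 relations were 0.0806 and 0.120. Within groups r was 0.49 in Sham and 0.57 in HF-HI, and without the 2 libraries farthest from the median of Grin2a it was 0.45. Grin1 had an r of 0.23 with Grin2a (rho 0.15, permutation p = 0.418 and 0.604). With Grin2b it had an r of 0.14 (rho 0.24, permutation p = 0.628 and 0.380), and the adjusted values of these relations were 0.507 or higher.

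The genes whose summed counts were most like those of each subunit over the 15 libraries were named by Pearson r on the log2 scale, out of 7867 other genes. For Grin1 these were Qars, a tRNA ligase (r = 0.84), Ints10, Cckbr, a cholecystokinin receptor, Crebbp, a transcriptional coactivator, and Pcdhac2, a protocadherin (r = 0.77). For Grin2a they were Hivep2, a transcription factor (r = 0.89), Sorl1, a sorting receptor (r = 0.87), Ina, a neuronal intermediate filament, Trim66 and Fstl4 (r = 0.82). For Grin2b they were Sept11, a septin (r = 0.82), Myt1l, a neuronal transcription factor, Wasl, an actin regulator, Numa1 and Entpd7 (r = 0.79). None of these 15 genes was called between the groups, where 9.35% of all genes were. They were picked for likeness to sums with no detected group difference, so this absence of calls carries little weight. They describe likeness over libraries of different depth.

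The other genes of the receptor and of its anchoring, transport, phosphorylation and co-agonist supply were read from a list of 75 names, of which 64 were listed in the data. Of these 64 genes, 5 were called at an unadjusted p under 0.05 (7.81%, beside 9.35% of all genes), 2 higher and 3 lower. With all 15 libraries none of the 64 had an adjusted p under 0.1, and neither did any of all 7870 genes (limma voom, smallest 0.111). The median log2 difference was −0.0027 over the list and −0.0037 over all genes.

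Camk2a, the kinase that docks on GluN2B, had 7328 to 8523 normalized counts in Sham (median 7606) and 7933 to 9256 in HF-HI (median 8557), and the Sham median was exceeded in 8 of 8 HF-HI libraries. Its log2 difference was 0.14 (SE 0.034, limma voom, unadjusted p = 0.000701, adjusted p = 0.202). Without Sham 4, which holds the highest Sham value, its adjusted p was 0.0829 with limma voom. It also stands among the excitatory neuron markers above. Lrp8, a reelin receptor that associates with NMDA receptors, was higher by 0.19 (limma voom, unadjusted p = 0.0225, adjusted p = 0.446). Lower were Lin7c, a scaffold of the complex that carries receptors (−0.12, unadjusted p = 0.00854, adjusted p = 0.350), Ptpn5, the phosphatase STEP that dephosphorylates GluN2B (−0.18, unadjusted p = 0.0229, adjusted p = 0.447), and Actn2, an actin crosslinker that binds GluN1 (−0.39, unadjusted p = 0.0446, adjusted p = 0.511), all with limma voom. With the log2 size factor as a covariate the calls of Lrp8, Lin7c and Actn2 were lost.

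The other receptor subunits were not called. Grin3a, a glycine-binding subunit that lowers calcium entry, had 197 to 260.1 normalized counts in Sham and 92.5 to 264 in HF-HI (log2 difference −0.29, limma voom, unadjusted p = 0.0715). Grin2c, a subunit best known from cerebellum, had 165 to 252 normalized counts in Sham, while HF-HI 6 had 3.69 in its single listed transcript (log2 difference −0.79, limma voom, unadjusted p = 0.154). Among the anchoring proteins, Dlg4, which encodes PSD-95, had a log2 difference of −0.068 (limma voom, unadjusted p = 0.142), and Dlg1, Dlg2 and Dlg3 lay between −0.0028 and 0.0094.

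At the transcript level, 16 of the 127 listed transcripts of these genes were called (12.6%, beside 8.83% of all), 8 higher and 8 lower. None of them had an adjusted p under 0.1 (limma, smallest 0.311), and none of all 10370 transcripts did. Called transcripts of a gene went both ways, in counts that are estimates dividing shared reads. Whether such opposite moves come from that division was not tested. For Dlgap1, a scaffold under PSD-95, Dlgap1-211 and Dlgap1-210 were higher and Dlgap1-207 and Dlgap1-214 were lower, while the summed gene had a log2 difference of 0.055 (limma voom, unadjusted p = 0.284). For Camk2b, Camk2b-210 was higher and Camk2b-209 lower around a summed difference of 0.027 (unadjusted p = 0.445, limma voom), and for Ptk2b, a tyrosine kinase, Ptk2b-205 was higher and Ptk2b-208 lower around −0.0026 (unadjusted p = 0.943, limma voom). With the log2 size factor as a covariate, 6 of the 127 transcripts were called. The share of all transcripts called with that covariate is not given here.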

How the data were processed

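Cortical RNA was sequenced in 7 Sham and 8 HF-HI libraries. Per the study's methods, the authors aligned stranded total RNA reads to mm10 with STAR, estimated counts per transcript with eXpress and normalized them with DESeq2. The annotation release was not given in the sources used here. The authors deposited log2 variance-stabilized values for 10370 transcripts, whose lowest mean was 107.9 normalized counts. The transformation was inverted, and 100% of values in each library were whole reads within 0.1. Reads were then summed per gene. Of the transcripts, 10241 matched GENCODE M21 and 129 did not.

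Groups were compared with limma 3.58.1 in R 4.3.3, two-sided, on the deposited values, with voom on reads per gene and with diffSplice for usage, adjusted over all features. A call is an unadjusted p under 0.05, and the adjusted threshold was 0.1. Ratios and shares were tested by exact permutation over all 6435 divisions of the libraries, with SciPy, and their intervals hold the shifts that this test keeps. With depth as a covariate the permutation is approximate, since the covariate stayed fixed while the groups were relabelled. The fits were tested on simulated reads, drawn independently with the same dispersion for all transcripts. The division of shared reads was therefore not simulated, and recovery of known changes was required of the transcript and gene fits but not of usage. Alternatives changed the scaling, the low-value filter, the scale, depth as a covariate, the replicate number and each library.

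Named transcripts were all members. Likeness was ranked by the 5 highest Pearson r per gene. Members and lists were chosen with earlier results of these data known. Counting error was taken from whole reads and covers counting only.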

Additional observations from a re-analysis of the deposited data

Results flagged for a closer look

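Of 46 groups of libraries examined for a member transcript, gene sum, ratio or share, 5 held a library far from the rest by Dixon's test. Chance flags about 1 in 20 groups, and these 5 come from 2 libraries and share reads. In HF-HI 1, Grin2a-201 was at 85.3 normalized counts and Grin2a-202 at 2187, with the other HF-HI libraries at 943 to 1160 and at 1122 to 1334. In HF-HI 7, Grin1-205 was at 109 (others 335 to 459), Grin1-208 at 491 (others 96.9 to 282) and the C1 share of coding Grin1 at 77.4% (others 54.6% to 62.0%). No gene sum and no subunit ratio was set apart in this way.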

How the results depend on the processing

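The summed genes kept their direction and stayed uncalled under all 20 alternatives each, with log2 differences of 0.0022 to 0.028 for Grin1, 0.013 to 0.054 for Grin2a and 0.0078 to 0.040 for Grin2b when each library was left out. The Grin2a to Grin2b log2 difference was 0.011 without division by length and 0.017 with complete coding transcripts (an alternative chosen after seeing the data), against −0.076. Grin2b-204 supplied 42.2% of the per-length level of Grin2b and 2.36% of its reads, and is left out of the complete coding setting. Division by length also changes the weight of the other transcripts, and their part in this turn was not tested. The non-coding share of Grin1 differed by 1.23 percentage points with the size factor covariate. Of the 13 member transcripts, 0 were called with that covariate and 0 with at least 300 normalized counts, a filter that removes Grin1-214, while 1 to 2 were called when each library was left out. With the covariate 1 Grin1 transcript was called in usage, Grin1-207. With a replicate block 2 member transcripts were called (Grin1-214 and Grin1-202). The shares of all transcripts called under these settings are not given here, so the counts are not read as particular to the members. Same-numbered libraries deviated with correlations of −0.14 to 0.090, and 1 of 7 Sham libraries correlated best with its own number, so the numbers were not read as pairs. The block turned Grin2b-202 to 0.010.

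Uncalled transcripts changed sign as follows, and the cause was not tested. Grin1-206 was at −0.033 with the covariate, −0.039 with voom and −0.0065 on log2 counts, and Grin1-208 at −0.037 with the covariate. When each library was left out, Grin1-204 ranged from −0.039 to 0.0083, Grin1-206 from −0.025 to 0.032, Grin1-208 from −0.026 to 0.055, Grin2a-201 from −0.083 to 0.077, Grin2a-202 from −0.027 to 0.057 and Grin2b-202 from −0.035 to 0.010. No adjusted p of a member transcript fell under 0.1 in 319 alternative fits (smallest 0.389). That count over all transcripts in these fits is not given here. The Grin1 to Grin2 difference was −0.0087 without division by length, −0.091 with protein coding and −0.032 with complete coding transcripts, and −0.077 to −0.020 with libraries left out. The Gria to Grin difference was −0.028, −0.043 and −0.000215 in the same settings, and −0.066 to −0.013 with libraries left out. With libraries left out the N1 share differed by 1.49 to 3.91 percentage points, the C1 share by −3.51 to −0.185 and the C2 share by −2.30 to −0.255. None of these ratios and cassette shares was called. Partner genes called numbered 10 with the replicate block and 8 without HF-HI 8, against 5, and partner transcripts called numbered 9 of the 80 with at least 300 normalized counts and 6 of 127 with the covariate, against 16 of 127. The shares of all genes and transcripts called under these settings are not given here, so the counts are not read as particular to the partners. Camk2a passed the adjusted threshold without Sham 4 alone (limma voom, adjusted p = 0.0829) and had an adjusted p of 0.130 to 0.457 otherwise. Ptpn5 lost its call without Sham 5 or HF-HI 8, and Actn2 did so without 10 of the 15 libraries. At this depth counting error is 6.83% for Grin1-214, and each member transcript varied by at least 2.48 times its counting error.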
